A study of Mus musculus with 19 samples.

Results

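The genes described here are 8 textbook targets of the peroxisome proliferator-activated receptors (PPARs) that fatty acids switch on in muscle: Pdk4, Angptl4, Ucp3, Cpt1a, Acot1, Acot2, Cd36 and Fabp3. They were taken by name from a deposited table of 14707 genes, all 8 were found there, and all 8 passed the filter on low values that left 13367 genes for testing. They were chosen with earlier results of these data known. RNA of mouse gastrocnemius, a calf muscle of mixed fibre type, had been sequenced in 19 libraries. Per the labels, all mice were male, of a strain spelled C657Bl/6J, and the groups differed in age and diet: 4 young lean libraries (6 months, 12% of dietary energy from fat), 5 young obese (6 months, 60%), 5 aged lean (20 to 21 months, 12%) and 5 aged obese (20 to 21 months, 60%). No label gives a transgene or a drug treatment. The series' design text disagrees with the labels in naming tibialis anterior, paired-end reads and an upper age of 24 months; the labels were followed. Whether every library is a separate animal is not stated, and the p-values therefore describe variation among these libraries, which may be technical.

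PPARs are nuclear receptors that bind fatty acids and their derivatives, pair with a retinoid X receptor (RXR) and sit on a repeated DNA half-site at their target genes. In skeletal muscle PPAR-delta is known as the main form, with PPAR-alpha beside it, and Ppargc1a encodes their best known coactivator. The targets cover the path of a fatty acid through the muscle fibre: Cd36 takes it up at the membrane, Fabp3 carries it in the cytosol, Cpt1a admits it to the mitochondrion, and Acot1 and Acot2 cleave its coenzyme A ester. Pdk4 turns down pyruvate entry into the citric acid cycle, Ucp3 is a carrier of the inner mitochondrial membrane, and Angptl4 is a secreted inhibitor of lipoprotein lipase.

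The promoters of 7 of the 8 genes were found in a RefSeq table on the build GRCm38.p6, which is not the build of the expression data, as 300 bases from 250 before to 50 after the start of the gene. They were searched on both strands for the PPAR:RXR element called DR1, the half-site AGGTCA repeated with 1 base between the repeats, allowing 2 mismatches over the 12 letters. Ucp3 and Cd36 held a match and Pdk4, Cpt1a, Acot1, Acot2 and Fabp3 held none in this window, while 3.86% of 32851 promoters in the table held one. The promoters of Ucp3 and Cd36 are shown because they carry the matches, in capitals, and that of Pdk4 because its rise was among the larger ones and it held no match. Each is written 5′ to 3′ in the direction of its gene.
Ucp3 (chr7:100472741-100473040, plus strand): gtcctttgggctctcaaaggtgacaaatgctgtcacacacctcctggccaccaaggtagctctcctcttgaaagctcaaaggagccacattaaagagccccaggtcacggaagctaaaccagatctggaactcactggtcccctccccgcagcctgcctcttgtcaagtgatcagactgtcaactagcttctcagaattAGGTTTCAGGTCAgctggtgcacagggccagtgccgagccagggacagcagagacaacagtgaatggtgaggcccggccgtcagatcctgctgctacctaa
Cd36 (chr5:17835847-17836146, minus strand): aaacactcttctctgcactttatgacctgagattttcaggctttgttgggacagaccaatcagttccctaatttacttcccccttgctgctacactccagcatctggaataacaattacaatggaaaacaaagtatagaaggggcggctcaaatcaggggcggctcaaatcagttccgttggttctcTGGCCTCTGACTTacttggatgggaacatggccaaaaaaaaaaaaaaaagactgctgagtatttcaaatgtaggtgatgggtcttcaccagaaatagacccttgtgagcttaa
Pdk4 (chr6:5496229-5496528, minus strand): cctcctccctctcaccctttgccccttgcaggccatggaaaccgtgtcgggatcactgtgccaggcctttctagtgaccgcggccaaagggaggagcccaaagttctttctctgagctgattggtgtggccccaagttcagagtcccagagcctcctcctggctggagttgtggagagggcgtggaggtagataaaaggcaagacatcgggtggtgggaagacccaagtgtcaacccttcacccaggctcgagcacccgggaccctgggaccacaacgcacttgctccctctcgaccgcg
The Ucp3 match, AGGTTTCAGGTCA, began at base -51 on the strand of the gene, and the Cd36 match, TGGCCTCTGACTT, at base -63 and reads as the element on the opposite strand. GTAAACA, a site of FoxO factors, was in 3.65% of all promoters and CACGTG, a site of clock factors, in 7.15%, and neither was in any of the 7. A match describes letters only, and a window without one leaves sites elsewhere unexamined.

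The values are the authors' normalized signal per gene and library, and their sum was 15.4 to 17.7 M per library. The defining markers of skeletal muscle were high throughout, with a summed signal of 10 genes between 2896860 and 3949975. Tendon markers differed most among the other tissues: the sum of 9 genes was 13147 to 31927 in the young obese libraries, 5559 to 9482 in the young lean, 3574 to 11260 in the aged lean and 3850 to 9424 in the aged obese. Slow fibre markers summed over 10 genes to 25298 to 72284 in the aged obese libraries and to 12482 to 38428 in the other 14. No marker measured in the 8 lists was at 0 in a library; Ucp1 and Elovl3 were not analysed here. In whole muscle, fewer cells of a type and less RNA per cell cannot be told apart. A few libraries stood apart over the 8 genes: young lean 1 was the highest of its group for 7 of them, aged obese 5 for 7, and aged lean 1 was the lowest of its group for 6.

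All 8 genes rose in young muscle on the high-fat diet, and none passed the test in aged muscle on the same diet. A gene was called changed at an adjusted p under 0.05 in limma over all 13367 genes. In young mice 5.7% of all genes were called higher and 5.33% lower, against 8 higher and 0 lower of the 8, whose median log2 change was 1.49 beside 0.01 for all genes. In aged mice the diet gave 0 calls among the 8 where 0.135% of all genes were called higher and 0.157% lower. All 8 estimates were above 0 there (median 0.62), and 5 had an unadjusted limma p under 0.05, as did 11.4% of all genes. Age on the lean diet gave 0 calls in limma, beside 2.09% of all genes higher and 1.99% lower, and 3 of the 8 had an unadjusted p under 0.05, as did 21% of all genes. Library weights gave 1 call for diet in aged and 2 for age on the lean diet, where 169 and 1565 of all 13367 genes were then called. Age on the high-fat diet lowered 3 of the 8 (Pdk4, Ucp3 and Cpt1a) and raised none, beside 4.86% of all genes lower and 4.16% higher. Aged obese against young lean muscle had 5 of the 8 higher (Pdk4, Cpt1a, Acot1, Acot2 and Cd36) and none lower, beside 3.25% higher and 2.33% lower of all genes. The interaction, the diet effect at the older age less the one at the younger, tests the difference directly. It was below 0 for all 8 and passed for Pdk4 and Cpt1a, beside 1.69% of all genes called lower and 1.29% higher. The counts over all genes vary with single libraries: leaving out 1 gave 673 to 2695 genes for diet in young (1475 with all), 6 to 70 for diet in aged (39), 283 to 1271 for age on the lean diet (545), 723 to 1893 for age on the high-fat diet (1206), 436 to 1078 for aged obese against young lean (746) and 112 to 1724 for the interaction (398). These comparisons share groups, so their values are not independent of each other.

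**Figure D1:**
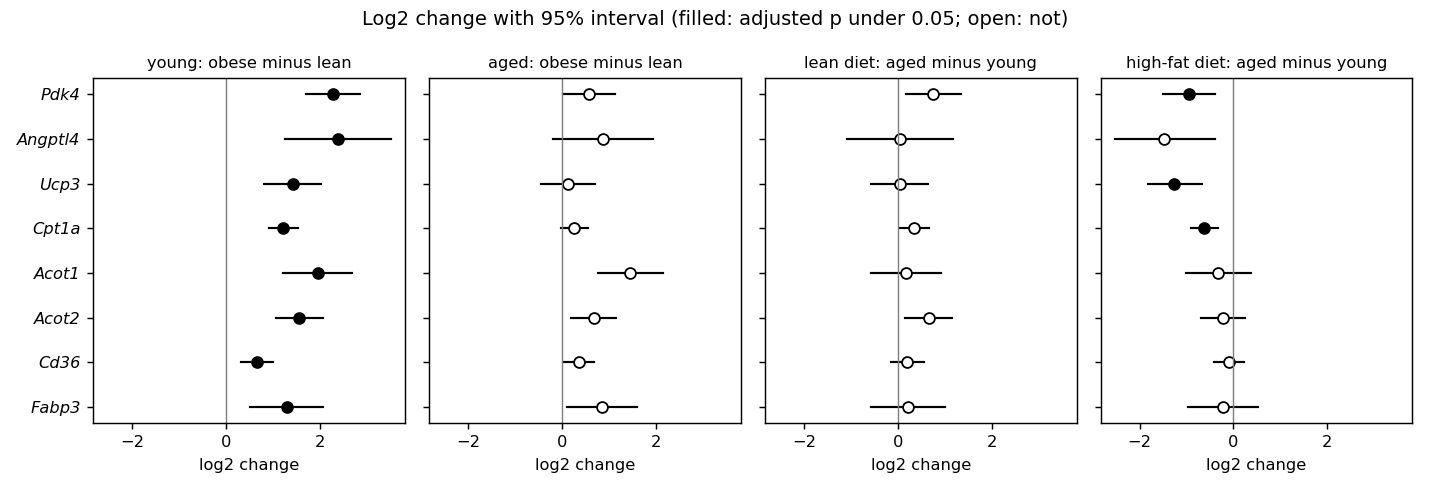
Log2 change of each gene (x axis, log2 units) with its 95% interval from limma in 4 comparisons; filled points passed an adjusted p of 0.05 and open points did not. All 8 points are filled for diet in young muscle, none for diet in aged muscle or age on the lean diet, and Pdk4, Ucp3 and Cpt1a for age on the high-fat diet.

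Pdk4, the kinase that shuts off the pyruvate dehydrogenase complex, stood at 4149, 3804, 3722 and 4503 in the young lean libraries and at 29723, 19926, 21664, 15369 and 14706 in the young obese ones. The lowest young obese library was thus above the highest young lean one, and the rise was 4.86-fold (log2 2.28 ± 0.28 SE, adjusted p = 0.000468). Among all genes tested it ranked 3 by p-value and 9 by size of rise. In aged lean muscle Pdk4 was at 2924, 8926, 10732, 7309 and 7114, and in aged obese muscle at 10584, 11223, 10032, 6883 and 12928. The aged groups overlapped, with aged lean 1 the lowest of all 19 libraries, and the log2 change with diet was 0.57 (95% interval 0.02 to 1.12, adjusted p = 0.418). On the lean diet aged minus young was 0.75 (interval 0.17 to 1.34, adjusted p = 0.127), and without aged lean 1 it was 1.06 with an adjusted p of 0.0107. On the high-fat diet every aged library was below every young one, and Pdk4 fell 1.94-fold with age (log2 -0.95 ± 0.26 SE, adjusted p = 0.0286). That call was lost when any 1 of 5 libraries was left out, with adjusted p up to 0.0797. The diet effect was smaller in aged than in young muscle by a log2 difference of -1.71 (interval -2.51 to -0.91, adjusted p = 0.0252), and that call was lost without young lean 2 or aged lean 5 (adjusted p up to 0.0546).

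**Figure D2:**
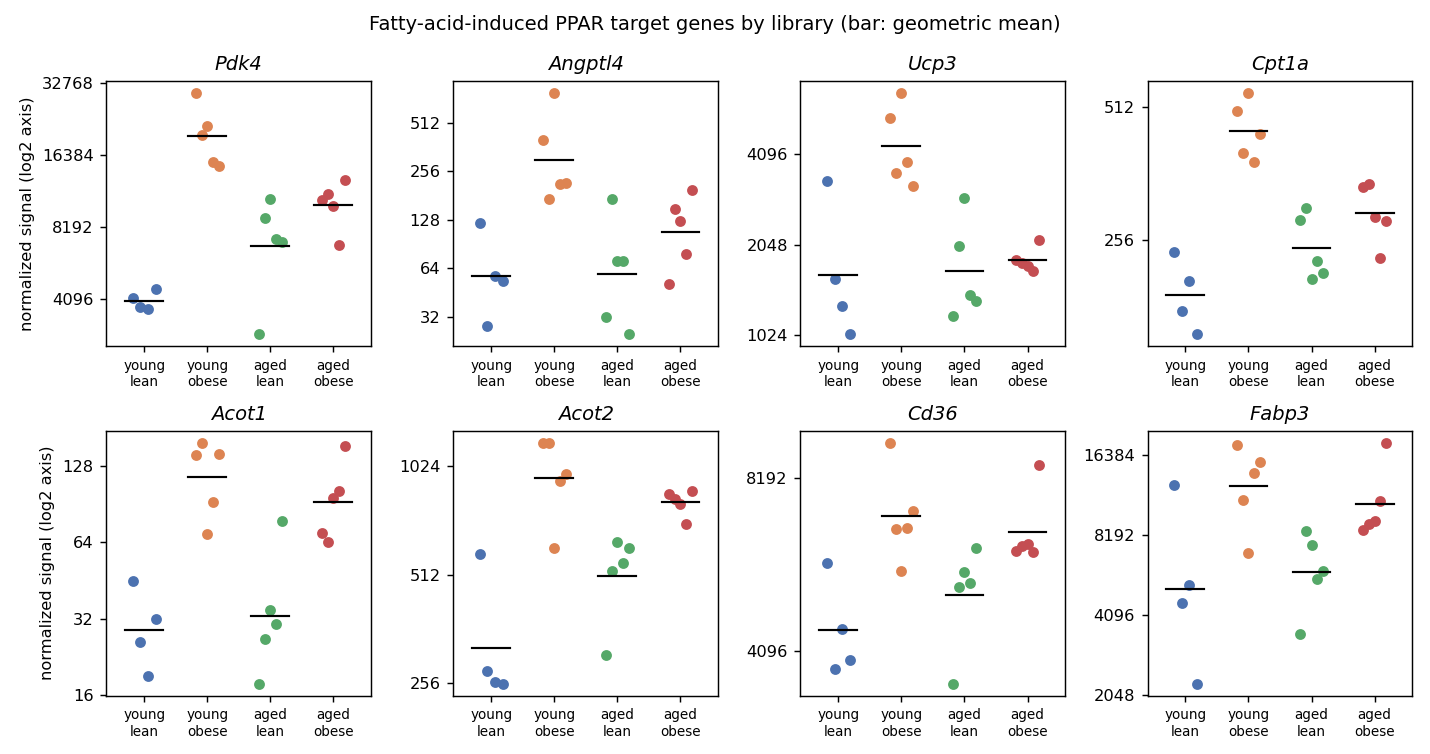
Normalized signal of the 8 genes (y axes, log2 scale, separate range per gene) in each of the 19 libraries, grouped by age and diet; each point is 1 library and the bar is the geometric mean of the group. Every young obese point lies above all others for Pdk4 and Cpt1a, and for Ucp3 all but 1 does, while for Acot1, Acot2, Cd36 and Fabp3 the young obese and aged obese points share a range.

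Cd36, the fatty acid transporter of the fibre membrane and of capillary endothelium, was at 5834, 3814, 4483 and 3957 in young lean and at 9438, 6676, 5654, 6700 and 7185 in young obese libraries. The ranges overlapped only through young lean 1 and young obese 3, and the rise was 1.58-fold (log2 0.66 ± 0.16 SE, adjusted p = 0.0164). It was the smallest rise of the 8 and lost its call without young lean 2 or young lean 4 (adjusted p up to 0.0608). In the aged groups Cd36 was at 3594, 5300, 5627, 5380 and 6200 on the lean diet and at 6124, 6241, 6286, 6081 and 8639 on the high-fat diet. Here 3 of 5 aged obese libraries exceeded every aged lean one, and the log2 change was 0.36 (interval 0.04 to 0.69, adjusted p = 0.369). Old and young muscle on the high-fat diet differed by -0.09 (interval -0.41 to 0.23, adjusted p = 0.758). Aged obese libraries were all above the young lean ones, by 0.57 on the log2 scale with an adjusted p of 0.046, a call that 13 of 19 single-library omissions ended (adjusted p up to 0.129).

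Fabp3, the cytosolic fatty acid carrier of heart and oxidative muscle, was at 12580, 4524, 5299 and 2255 in young lean and at 17908, 11127, 6996, 14021 and 15396 in young obese libraries. Young lean 1 lay within the young obese range, and the rise was 2.44-fold (log2 1.29 ± 0.38 SE, adjusted p = 0.0346). This was the weakest of the 8 calls in young muscle: it was lost without any 1 of 6 libraries (adjusted p up to 0.12) and was 1.72 with an adjusted p of 0.00204 without young lean 1. In aged lean muscle Fabp3 was at 3459, 8443, 7518, 5598 and 5993, and in aged obese muscle at 8548, 8996, 9215, 10998 and 18198. The aged groups did not overlap, yet the log2 change of 0.85 (interval 0.11 to 1.60) had an adjusted p of 0.363, and it was 0.66 without aged obese 5. Neither age comparison passed (log2 0.22 on the lean and -0.22 on the high-fat diet, adjusted p = 0.792 and 0.742).

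Angptl4, the lipoprotein lipase inhibitor, was at 123, 28.2, 57.1 and 53.5 in young lean and at 398, 173, 784, 213 and 218 in young obese libraries. The groups did not overlap, and its 5.21-fold rise was the least precise of the 8 (log2 2.38 ± 0.54 SE, adjusted p = 0.0111). Without young lean 3 and young obese 3 together, Angptl4 rose by 2.04 in log2 and was not called (adjusted p = 0.0572). In aged muscle it was at 31.7, 173, 71.4, 71.4 and 25 on the lean diet and at 51.4, 150, 126, 78 and 195 on the high-fat diet. These ranges overlapped widely, and the log2 change was 0.87 (interval -0.20 to 1.93, adjusted p = 0.56). On the high-fat diet the aged level differed by -1.47 in log2 (interval -2.53 to -0.40, adjusted p = 0.0761), with 1 aged library inside the young range. It passed with library weights (adjusted p = 0.0342), with the 2 groups alone (0.0465), when young obese 2 was omitted (0.0448) and when young lean 1 was omitted with it (0.0304). Lpl, the enzyme it inhibits, averaged 14202 ± 4893 (SD, n = 4) on the lean and 15359 ± 3664 (SD, n = 5) on the high-fat diet in young mice, a log2 change of 0.14 with an adjusted p of 0.7.

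Cpt1a, the liver-type carnitine palmitoyltransferase that is the lesser form in muscle, was at 240, 177, 207 and 157 in young lean and at 500, 402, 550, 385 and 445 in young obese libraries. The groups were far apart, and the 2.34-fold rise (log2 1.22 ± 0.15 SE, adjusted p = 0.000468) ranked 2 by p-value among all genes. The aged libraries were at 284, 303, 209, 230 and 216 on the lean diet and at 338, 343, 289, 233 and 283 on the high-fat diet. Only 2 of 5 aged obese libraries lay above all aged lean ones, and the log2 change was 0.26 (interval -0.03 to 0.55, adjusted p = 0.505). On the high-fat diet every aged library was below every young one, a 1.53-fold lower level (log2 -0.62 ± 0.14 SE, adjusted p = 0.01). The diet effect differed between the ages by -0.96 (interval -1.39 to -0.54, adjusted p = 0.02), which reached an adjusted p of 0.0501 without young lean 2. Cpt1b, the muscle form, did not pass with diet in young muscle (log2 0.31, interval 0.04 to 0.57, adjusted p = 0.12).

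Acot2, the mitochondrial acyl-CoA thioesterase, was at 584, 277, 257 and 255 in young lean and at 1189, 1186, 605, 931 and 977 in young obese libraries. Young lean 1 came close to young obese 3 without overlap, and the rise was 2.96-fold (log2 1.56 ± 0.24 SE, adjusted p = 0.00126). In aged muscle Acot2 was at 307, 523, 632, 550 and 607 on the lean diet and at 855, 831, 802, 708 and 876 on the high-fat diet. Every aged obese library was above every aged lean one, but the log2 change of 0.68 (interval 0.20 to 1.15) had an adjusted p of 0.245. On the lean diet the aged level was higher by 0.66 (interval 0.16 to 1.16, adjusted p = 0.118), and without young lean 1 this was 0.95 with an adjusted p of 0.00839. On the high-fat diet the age difference was -0.23 (interval -0.70 to 0.25, adjusted p = 0.555).

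Acot1, the cytosolic thioesterase encoded next to Acot2, was at 45.2, 25.9, 19.1 and 32 in young lean and at 142, 158, 69.3, 92.5 and 143 in young obese libraries. The groups did not overlap, and the rise was 3.87-fold (log2 1.95 ± 0.35 SE, adjusted p = 0.00365). In aged muscle it was at 17.8, 26.7, 34.6, 30.7 and 77.7 on the lean diet and at 69.8, 64.3, 95.5, 102 and 154 on the high-fat diet. Aged lean 5 alone reached into the aged obese range. This was the largest diet change of the 8 in aged muscle, 2.74-fold (log2 1.45, interval 0.76 to 2.15, adjusted p = 0.0695), and it passed without aged lean 5 (1.76, adjusted p = 0.0212). The interaction was -0.50 (interval -1.52 to 0.52, adjusted p = 0.569). The paralogues are alike: 23.7% of 50-base windows of the Acot1 transcript in GENCODE M21 also occur in Acot2, so how reads were split between them is uncertain.

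Ucp3, the muscle uncoupling protein homologue, was at 3348, 1582, 1281 and 1034 in young lean and at 5424, 3551, 6553, 3870 and 3207 in young obese libraries. Young lean 1 overlapped the lowest young obese library, and the rise was 2.67-fold (log2 1.42 ± 0.29 SE, adjusted p = 0.00693). The call was lost with the 2 young groups alone (adjusted p = 0.0565) and without young lean 3 and young obese 3 together (0.0505). In aged muscle Ucp3 was at 1185, 2023, 2926, 1399 and 1334 on the lean diet and at 1830, 1775, 1735, 1674 and 2130 on the high-fat diet. The aged obese values lay inside the aged lean range, and the log2 change of 0.12 (interval -0.45 to 0.70, adjusted p = 0.909) was the smallest of the 8. On the high-fat diet every aged library was below every young one, and Ucp3 fell with age 2.39-fold (log2 -1.26 ± 0.28 SE, adjusted p = 0.00848). The interaction was -1.30 (interval -2.13 to -0.46, adjusted p = 0.0749), and it passed without young lean 1 (-1.64, adjusted p = 0.0058). Its relative Ucp2 also rose in young muscle, by 0.97 on the log2 scale (adjusted p = 0.0343).

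Ratios within a library need no scaling between libraries, and only their change is read here. The log2 ratio of Pdk4 to Pdk2, the main constitutive kinase of muscle, averaged -1.57 ± 0.19 (SD, n = 4) for young lean libraries, 0.73 ± 0.48 (SD, n = 5) for young obese ones, -0.63 ± 0.63 (SD, n = 5) in aged lean and -0.26 ± 0.36 (SD, n = 5) in aged obese muscle. It rose by 2.30 with diet in young muscle (exact two-sided permutation p = 0.0159, the smallest that 4 against 5 libraries allow, adjusted over 4 ratios 0.0317) and did not pass in aged muscle (0.38, exact p = 0.302, adjusted 0.444). On the high-fat diet it fell by 0.98 with age (exact permutation p = 0.00794, the smallest for 5 against 5, adjusted 0.0159). The Cpt1a to Cpt1b ratio rose by 0.92 with diet in young muscle (exact p = 0.0159, adjusted 0.0317) and fell by 0.51 with age on the high-fat diet (exact p = 0.0238, adjusted 0.0317), a call that 7 of 10 single omissions ended (adjusted exact p up to 0.0635). The Ucp3 to Ucp2 ratio was not called with diet in young muscle (0.45, exact p = 0.286) and fell by 0.63 with age on the high-fat diet (exact p = 0.00794, adjusted 0.0159). The Pdk4 to Pdk2 and Cpt1a to Cpt1b calls with diet in young muscle were each lost in 8 of 9 single omissions (adjusted exact p up to 0.0714). Fewer libraries there raise the smallest p that the test allows. The Acot1 to Acot2 ratio passed in none of the 5 pairwise comparisons with all libraries. Without young lean 4 it passed with diet in young muscle (0.54, adjusted exact p = 0.0476).

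Some ratios among the 8 genes differed between old and young muscle on the high-fat diet, in a test at its limit. In a test chosen once results were known, the log2 ratios of all 28 gene pairs were compared between groups by exact permutation, adjusted over the 28. With age on the high-fat diet 5 ratios fell, each with an exact p of 0.00794 and an adjusted p of 0.0444: Pdk4 to Acot2 (-0.73), Pdk4 to Cd36 (-0.87), Angptl4 to Cd36 (-1.38), Ucp3 to Acot2 (-1.03) and Ucp3 to Cd36 (-1.17). Pdk4, Angptl4 and Ucp3 were thus lower with age relative to Cd36, and Pdk4 and Ucp3 relative to Acot2. With 5 against 5 libraries, 5 of the 28 pairs are needed at the smallest exact p, and exactly 5 reached it. These 5 calls therefore hold or fail together, and they were not checked by leaving out libraries. The Ucp3 to Cd36 ratio averaged -0.69 ± 0.53 (SD, n = 5) for young obese libraries against -1.86 ± 0.10 (SD, n = 5) for aged obese ones. No ratio passed for diet in young (lowest adjusted exact p = 0.0741), diet in aged (0.178) or age on the lean diet (0.778). With 4 against 5 libraries, 9 of the 28 pairs must reach the smallest exact p to pass, and with diet in young muscle 6 did, among them Angptl4 to Cd36 (1.72), Pdk4 to Cd36 (1.62) and Acot1 to Cd36 (1.30). The missing calls there do not show that the genes rose alike.

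**Figure D3:**
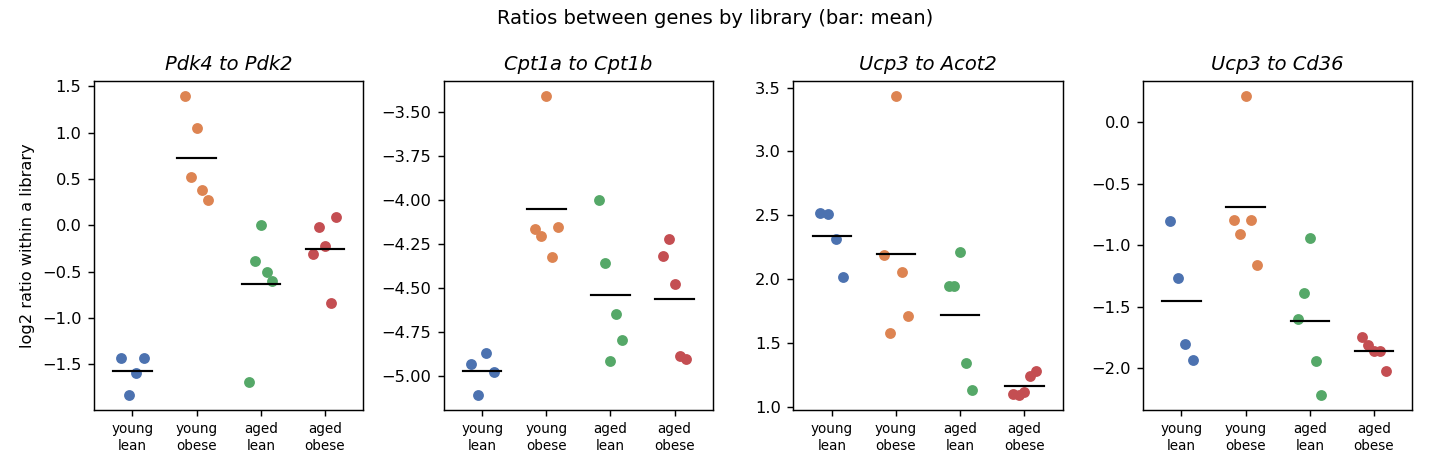
Log2 ratios of gene pairs within each library (y axes, log2 units) in the 4 groups; each point is 1 library and the bar is the group mean. The Pdk4 to Pdk2 ratio of every young obese library is above every young lean one, and the Ucp3 to Acot2 and Ucp3 to Cd36 ratios of every aged obese library are below every young obese one.

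Within groups, the genes also varied together in sets. Each library's deviation from its group mean on the log2 scale was correlated over the 19 libraries, with permutation p-values from 100000 shuffles within groups. Of 7 planned relations with Pdk4 none passed after adjustment: the highest were Cd36 (Pearson r 0.62, permutation p = 0.0193, adjusted 0.0675; Spearman rho 0.43) and Ucp3 (r 0.53, permutation p = 0.0176, adjusted 0.0675; rho 0.57). Without aged lean 1 and young obese 1, the libraries farthest from the median Pdk4 level, these were 0.09 and 0.48. Without aged lean 1 and aged obese 4, the farthest by deviation from the group mean, which is the rule for all pairs below, they were 0.35 and 0.54. The remaining 21 pairs were tested once results were known, with adjustment over all 28.

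Of the 28 pairs, 6 passed by both coefficients, and 5 of them join Acot1, Acot2, Cd36 and Fabp3. Cd36 and Fabp3 had r 0.82 (permutation p = 0.00035, adjusted 0.00938) and rho 0.85 (permutation p = 0.0002, adjusted 0.0056), and r was 0.75 without the 2 libraries farthest from the median of Cd36. Acot2 and Cd36 had r 0.82 (adjusted permutation p = 0.00938), rho 0.81 (adjusted 0.0174) and 0.62 without 2 libraries. Acot2 and Fabp3 had r 0.77 (adjusted permutation p = 0.0221), rho 0.63 (adjusted 0.0496) and 0.49 without young lean 1 and aged lean 1. Acot1 had r 0.73 with Cd36 and 0.68 with Acot2 (adjusted permutation p = 0.0221 each), with rho 0.62 (adjusted 0.0496) and 0.67 (adjusted 0.0401), and 0.68 for either r without 2 libraries. The sixth pair was Angptl4 and Ucp3, with r 0.64 (adjusted permutation p = 0.0461), rho 0.62 (adjusted 0.0496) and 0.59 without 2 libraries. Cpt1a passed with none, and its r with Acot1 was -0.41 (adjusted permutation p = 0.219).

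**Figure D4:**
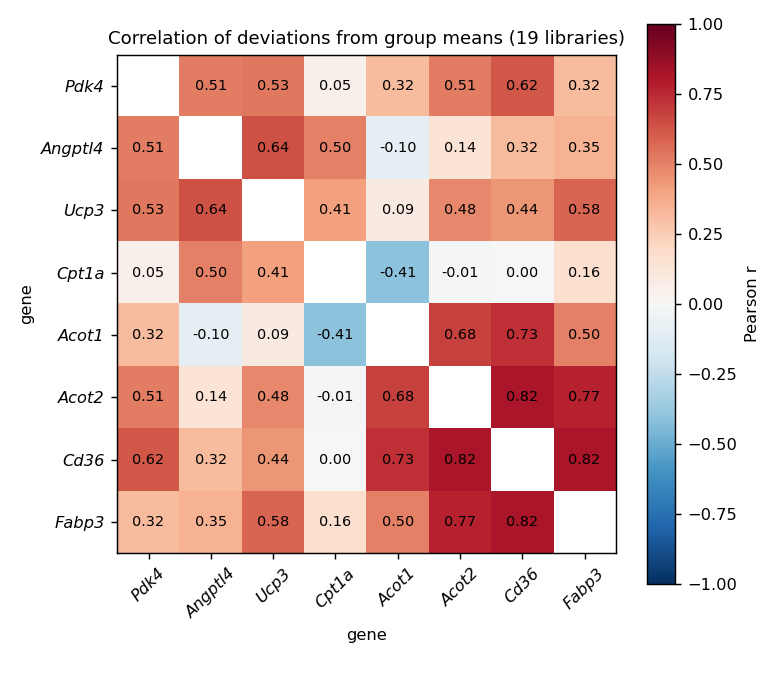
Pearson r between the deviations of each pair of genes from their group means over 19 libraries (color scale from -1 to 1, value in each cell). The cells joining Acot1, Acot2, Cd36 and Fabp3 run from 0.50 to 0.82, and those of Cpt1a from -0.41 to 0.50.

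Over all 19 libraries, group differences included, the genes nearest to each member by Pearson r among 10863 genes with a mean of at least 50 also differed by member. Pdk4 was nearest to Pank1, a pantothenate kinase of coenzyme A synthesis (r 0.92), which was at 277 ± 61.9 (SD, n = 4) in young lean, 674 ± 130 (SD, n = 5) in young obese, 428 ± 92.4 (SD, n = 5) in aged lean and 436 ± 87.1 (SD, n = 5) in aged obese muscle. Acot2 was nearest to Hsd17b4, a peroxisomal beta-oxidation enzyme (0.94), and Mlycd, which degrades malonyl-CoA (0.94). Cd36 was nearest to Fgf1 (0.96) and to Mgll, a monoglyceride lipase (0.94), and Fabp3 to the epoxide hydrolase gene Ephx2 (0.96), the thiolase gene Acaa2 (0.95) and Mgll (0.95). Ucp3 was nearest to Tob1 (0.90), Cpt1a to Numb (0.89) and Angptl4 to Tmem132a (0.84). These r are descriptions over libraries that share groups and diets.

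None of the receptor genes was called higher in limma with diet in young muscle. Of 6 PPAR and RXR genes 2 had an unadjusted p under 0.05, near the 28.6% of all genes, and 1 fell with diet in young muscle: Ppard, the PPAR-delta gene, averaged 1254 ± 228 (SD, n = 4) on the lean diet and 905 ± 77.9 (SD, n = 5) on the high-fat diet (log2 -0.45 ± 0.11 SE, adjusted p = 0.012). It was also lower in aged lean than in young lean muscle (-0.56, adjusted p = 0.00604), as was Rxra (-0.42, adjusted p = 0.0138), and the diet effect on Ppard differed between the ages by 0.59 (adjusted p = 0.0384). Ppara did not pass with diet in young muscle (0.02, interval -0.41 to 0.45), nor did Pparg (0.41, interval -0.08 to 0.90) or Rxrg (-0.00, interval -0.37 to 0.36). The coactivator gene Ppargc1a was at 742 ± 69 (SD, n = 4) and 798 ± 90.2 (SD, n = 5), a log2 change of 0.10 (interval -0.09 to 0.30). Of 12 coregulator genes 5 fell in young muscle on the high-fat diet, beside 5.33% of all genes. These were Med1 (-0.37), the lipin and coactivator Lpin1 (-0.37), Ep300 (-0.34), the corepressor Nrip1 (-0.70) and Ncoa1 (-0.38), with adjusted p from 0.00321 to 0.0412. Lpin1 was also lower in aged muscle on either diet (-0.46 and -0.44, adjusted p = 0.0102 and 0.00496).

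Other PPAR targets had a smaller median change. The median log2 change of the 31 tested with diet in young muscle was 0.44, beside 1.49 for the 8. The 8 and the lists were chosen with earlier results of these data known, so this difference in size only describes them. Of these 31, 12 rose and 0 fell, beside 5.7% of all genes higher and 5.33% lower. They included the dienoyl-CoA isomerase Ech1 (0.76), the lipid droplet proteins Plin2 (0.72) and Cidea (1.88), malonyl-CoA decarboxylase Mlycd (0.52) and Mgll (0.85), with adjusted p from 0.0116 to 0.0127. Cidea is also in the brown adipocyte list used here, and its signal in young lean libraries was low, from 3.13 to 19.5. Fabp4, a carrier of adipocytes and capillaries, did not pass (0.47, interval 0.06 to 0.89, adjusted p = 0.124). In aged muscle 0 of the 31 passed in limma with a median of 0.22, and 11 had an unadjusted p under 0.05, as did 11.4% of all genes. In aged obese against young lean muscle 6 rose, beside 3.25% of all genes. Among them were Cidea (2.30), Slc27a1, a fatty acid transport protein (0.55), and the droplet protein Plin5 (1.10).

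Neighbouring pathways gave few calls. Of 11 other genes of the pyruvate dehydrogenase switch, 0 passed with diet in young muscle in limma and 2 had an unadjusted p under 0.05, as did 28.6% of all genes. With age on the high-fat diet, where Pdk4 was lower, the phosphatase gene Pdp1 rose (0.60, adjusted p = 0.00231) and Pdp2 fell (-0.45, adjusted p = 0.0484). Of 18 genes induced by fasting, FoxO factors or glucocorticoids, 0 passed with diet in young muscle in limma, with a median of 0.15, and 5 had an unadjusted p under 0.05, near the share of all genes. The glucocorticoid target Fkbp5 fell in aged obese against young lean muscle (-1.50, adjusted p = 0.00611).

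Marker levels and clock genes moved with several of these genes. With diet in young muscle 7 of 9 tendon markers rose, among them Cilp2 (2.42) and Tnmd (2.18), and 5 of 10 markers of fibro-adipogenic cells, beside 5.7% of all genes. A tendon score, the mean log2 level of 6 tendon genes, was 5.99 to 7.17 in young lean and 7.67 to 9.13 in young obese libraries. It was 5.43 to 7.13 in aged obese ones, so the young obese values overlapped neither group. As a covariate it can hardly be told apart from diet in young muscle or from age on the high-fat diet. Calls lost with it therefore do not decide its part. With this covariate 0 of all 13367 genes passed with diet in young muscle. The estimates then were 2.41 for Pdk4, 2.00 for Ucp3, 1.33 for Cpt1a and 1.67 for Acot2, against 0.46 for Cd36 and 0.98 for Fabp3, with adjusted p over the 8 from 0.147 to 0.565. With age on the high-fat diet none of the 8 passed under that covariate, beside 12 of all genes. The estimates were -1.11 for Pdk4, -1.96 for Ucp3 and -0.75 for Cpt1a (adjusted p = 0.468, 0.106 and 0.313). None of the 8 passed for the difference between the ages, with -1.85 for Pdk4 and -1.08 for Cpt1a (adjusted p = 0.259 and 0.243). For age on the high-fat diet 8 of 9 tendon markers fell (median -2.11), 5 of 10 fibro-adipogenic markers fell (median -0.53) and 4 of 10 slow fibre markers rose (median 0.80). Of all genes 4.86% fell and 4.16% rose there. For the difference between the ages 2 tendon and 3 fibro-adipogenic markers passed below 0, beside 1.69% of all genes. Of 11 macrophage markers, all below 0 with a median of -1.41, Adgre1 passed (-2.38, adjusted p = 0.0396). The 11 were all above 0 for age on the lean diet (median 1.04) and all below 0 for diet in aged muscle (median -1.03). In each, 0 were called and 9 had an unadjusted limma p under 0.05, beside 21% and 11.4% of all genes. The highest macrophage sum of the 19 libraries, 16364, was in aged lean 1. The part of these cell types in the results was not tested, and the tendon score as covariate cannot decide it for tendon. Within groups no relation of the 8 genes with the tendon markers passed, with r from -0.33 to 0.38.

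The clock score (the mean log2 level of Clock, Npas2 and Arntl less the mean of 6 genes of the opposite phase) was -3.20 to -1.32 in young lean, -2.12 to -0.48 in young obese, -2.30 to -0.70 in aged lean and -2.95 to -1.74 in aged obese muscle. Of 19 clock genes 3 rose and 3 fell with diet in young muscle, beside 5.7% of all genes higher and 5.33% lower. Among them were Arntl (0.77), Npas2 (1.34) and Per3 (-1.05). With this score as covariate 3 of the 8 passed with diet in young muscle: Pdk4 (1.80, adjusted p = 0.0102), Cpt1a (1.02, adjusted p = 0.0102) and Acot2 (1.14, adjusted p = 0.0311). Of the 8, none passed with age on the high-fat diet (Pdk4 -0.52, Ucp3 -0.69, Cpt1a -0.43, adjusted p = 0.337, 0.135 and 0.147), beside 306 of all genes. None of the 8 passed for the difference between the ages (Pdk4 -0.82, Cpt1a -0.58, adjusted p = 0.541 and 0.463). For diet in aged muscle the estimates of all 8 were larger with this covariate and none of the 8 passed, beside 26 of all genes. They were 0.98 for Pdk4, 1.77 for Angptl4, 0.65 for Ucp3, 0.44 for Cpt1a, 1.75 for Acot1, 1.03 for Acot2, 0.62 for Cd36 and 1.43 for Fabp3, with adjusted p from 0.0658 to 0.33. Within groups 4 relations with the clock score passed among 40 relations with scores and markers, all chosen once results were known: Ucp3 (r 0.72), Angptl4 (0.66), Cd36 (0.64) and Pdk4 (0.58), with adjusted permutation p from 0.0399 to 0.0456. Their rho were 0.69, 0.65, 0.63 and 0.59, of which that of Ucp3 passed (adjusted permutation p = 0.0456). Without young lean 1 and young obese 1 these r were 0.51, 0.62, 0.34 and 0.64. Young lean and young obese clock scores overlapped only through young lean 1 (-1.32). As a covariate the score is therefore hard to tell apart from diet in young muscle, and calls lost with it do not decide its part. No label used here gives the time of day of collection, and beyond this covariate the part of the clock in these results was not tested.

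Slow fibre markers varied with Fabp3 and Cd36, and capillary and fat cell markers with Acot1 and Cd36. Within groups the slow fibre sum had r 0.64 with Fabp3 and 0.61 with Cd36 (adjusted permutation p = 0.0399 and 0.0456; rho 0.60 and 0.66), and 0.67 and 0.53 without aged obese 4 and 5. The sum of 12 endothelial markers had r 0.81 with Acot1 and 0.75 with Cd36 (adjusted permutation p = 0.0168 and 0.0296; rho 0.77 and 0.68), and 0.69 and 0.65 without 2 libraries. The sum of 10 adipocyte markers had r 0.63 with Acot1 and 0.65 with Cd36 (adjusted permutation p = 0.0399 each; rho 0.60 and 0.54), and 0.58 and 0.45 without 2 libraries. Of these rho, the slow fibre one of Cd36 and both endothelial ones passed. No relation of Pdk4, Angptl4, Ucp3 or Cpt1a with these 3 sums passed. In aged muscle 5 of 10 slow fibre markers rose on the high-fat diet, among them Myh7 (1.80) and Tnni1 (1.96), beside 0.135% of all genes. In young muscle, where Fabp3 and Cd36 rose, 0 of 10 passed in limma. There 0 of 10 had an unadjusted p under 0.05, beside 28.6% of all genes. Of 12 endothelial markers, Cdh5 rose with diet in young muscle (0.29, adjusted p = 0.0303), beside 5.7% of all genes. There 5 of the 12 had an unadjusted limma p under 0.05, beside 28.6% of all genes. In aged muscle 0 of the 12 passed in limma and 4 had an unadjusted p under 0.05, beside 11.4% of all genes. Of the adipocyte markers 0 of 10 passed in limma with diet at either age, 2 had an unadjusted p under 0.05 in young muscle and 0 in aged muscle. The part of either list in the results was not tested.

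**Figure D5:**
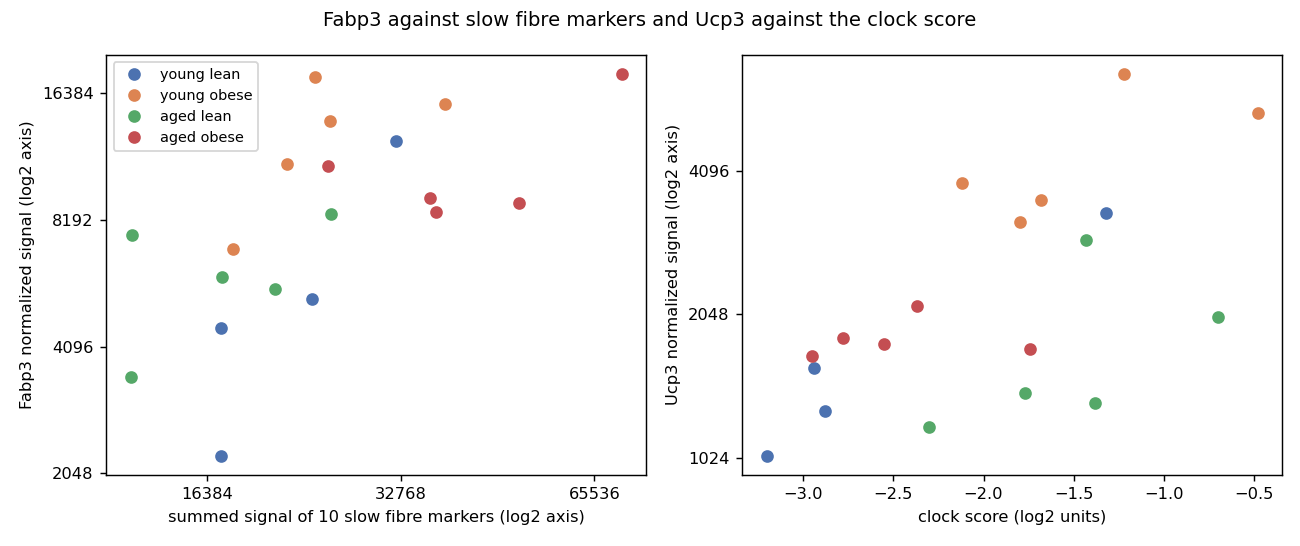
Left, Fabp3 signal against the summed signal of 10 slow fibre markers; right, Ucp3 signal against the clock score in log2 units; signal axes are on log2 scales and each point is 1 of 19 libraries, colored by group. Aged obese 5 has the highest slow fibre sum (72284) and the highest Fabp3 (18198), and every young obese point lies above every aged obese point in Ucp3.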

How the data were processed

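Per the labels, the deposited table holds 1 normalized signal value per gene and library, which the authors made. The submitters' processing notes name STAR 2.78a, DESeq2, Partek and mm39 without saying what each did. Annotation, counter and filters: not given in the sources used here. Of values up to 200, 85.2 to 86.3% were whole multiples of the value of 1 read within 0.02 read, too few to recover reads, and a count model was therefore not used.

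The 8 genes and all lists were chosen with earlier results of these data known. A minimum mean of 10 kept 13367 genes, and log2(value + 1) was tested with limma 3.58.1 (limma-trend) in R 4.3.3, with 4 group means in 1 model of 19 libraries (15 residual and 4.37 prior degrees of freedom) and Benjamini-Hochberg adjustment over all genes tested in each of 6 contrasts. Changes of low genes are understated on this scale. Gene ratios were compared by exact two-sided permutation tests and within-group relations by 100000 shuffles (Python 3.11.15, scipy 1.17.1). The limma procedure was tested on simulated data. Beyond the 8 genes, the text names receptors, Pdk2, Cpt1b, Ucp2, Fabp4, Lpl, up to 5 genes of lowest p per list and comparison, and the 3 genes nearest to each of the 8 by r. Library numbers follow the submitters' library numbers and pair no libraries across groups. Alternatives were other pseudocounts, filters, scalings, weights, covariates, robust moderation of the spread and left-out libraries. Promoter sequences are RefSeq, GRCm38.p6.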

Additional observations from a re-analysis of the deposited data

Results flagged for a closer look

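In 4 of the 32 combinations of gene and group, 1 library lay far from the others of its group by Dixon's criterion. It was applied to the signal without log2. For normally distributed values chance alone passes it in about 1 of 20 groups, and skewed signal can pass it more often. All 4 were the highest value of their group. Acot1 was 77.7 in aged lean 5, where the other aged lean libraries were at 17.8 to 34.6. Acot2 was 584 in young lean 1, with the other young lean libraries at 255 to 277. Cd36 was 8639 and Fabp3 18198 in aged obese 5, with the other aged obese libraries at 6081 to 6286 and at 8548 to 10998. Aged obese 5 also had the highest sum of slow fibre markers, 72284, and the part of that in these values was not tested.

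The interaction, the aged less the young diet effect, passed the limma test for Pdk4 (log2 -1.71, adjusted p = 0.0252) and for Cpt1a (-0.96, adjusted p = 0.02).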

How the results depend on the processing

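Pseudocounts of 0.1 and 10, no filter, a filter at a mean of 50 and quantile normalization left the number of the 8 genes called as it was in all 6 comparisons. With diet in young muscle the 8 calls were 3 with the clock score, 0 with the tendon score and 5 when the 2 young groups were tested alone. The calls over all genes were then 137, 0 and 182, against 1475 in the main test. For age on the high-fat diet the 3 calls were 0 with either score. Over all genes there were 306 with the clock score and 12 with the tendon score, against 1206. For aged obese against young lean the 5 calls were 3 with those groups alone. For the difference between the ages the 2 calls were 0 with either score, 4 with library weights, 4 when young lean 1 and young obese 2 were omitted, and 1 when young lean 3 and young obese 3 were. Library weights gave 1 call for diet in aged and 2 for age on the lean diet, where leaving out young lean 1 and young obese 2 gave 1 each. Over all genes the weights gave 169 and 1565 calls there, and leaving out those libraries 117 and 1489. Leaving out 1 library gave 6 to 8 calls for diet in young, 0 to 1 for diet in aged, 0 to 1 for age on the lean diet, 2 to 4 for age on the high-fat diet, 3 to 6 for aged obese against young lean and 0 to 4 for the difference between the ages, with 4 without young lean 1, 0 without young lean 2 and 1 without aged lean 5. The cause of these changes was not tested, except that fewer libraries enter where groups are alone or left out.

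Some uncalled changes turned in sign. For age on the lean diet Angptl4 was -0.10 with quantile normalization and, with the clock score, Angptl4 was -0.96, Ucp3 -0.55, Acot1 -0.15, Cd36 -0.08 and Fabp3 -0.43. Ucp3 was -0.03 with the tendon score, and omitting young lean 3 with young obese 3 gave -0.08 for Ucp3 and -0.01 for Acot1. For age on the high-fat diet the clock score gave Acot2 0.15, Cd36 0.18 and Fabp3 0.39, and the tendon score Acot1 0.06, Cd36 0.15 and Fabp3 0.16. For the difference between the ages the clock score gave Angptl4 0.44 (-1.51 without it), Acot1 0.15, Cd36 0.26 and Fabp3 0.82. The r of Pdk4 with Acot1 and with Fabp3 was -0.11 and -0.07 without aged lean 1 and young obese 1, and 0.05 and 0.12 without aged lean 1 and aged obese 4. Single omissions moved age on the lean diet from -0.12 to 0.39 for Acot1, -0.34 to 0.41 for Angptl4, -0.18 to 0.65 for Fabp3 and -0.18 to 0.39 for Ucp3, age on the high-fat diet from -0.19 to 0.02 for Cd36, diet in aged from -0.00 to 0.33 for Ucp3, and aged obese against young lean from -0.06 to 0.51 for Ucp3.

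With diet in young, single omissions moved the ratios of Pdk4 to Pdk2 (2.13 to 2.41) and Cpt1a to Cpt1b (0.76 to 0.99). Each of these 2 calls was lost in 8 of 9 omissions (adjusted exact p up to 0.0714), where fewer libraries raise the smallest p an exact test allows. Acot1 to Acot2 moved from 0.30 to 0.54 and passed without young lean 4 (adjusted exact p = 0.0476). For age on the high-fat diet single omissions gave -0.59 to -0.35 for Cpt1a to Cpt1b, ending the call in 7 of 10, and -0.25 to 0.05 for Acot1 to Acot2. They gave -0.11 to 0.12 for Cpt1a to Cpt1b for diet in aged, and -0.44 to 0.08 for Ucp3 to Ucp2 for aged obese against young lean. No paired analysis was possible because the library numbers run over all groups and pair no libraries. Angptl4 and Acot1 had the lowest signals of the 8, which limits their precision.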
